A study of Mus musculus with 12 samples.

Results

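The Cd3d to Jaml gene run is a set of 8 protein-coding genes on mouse chromosome 9, the chromosome of Rab27a: Vps11, Hyou1, Trappc4, Bcl9l, Cd3d, Mpzl2, Mpzl3 and Jaml, in that order along the chromosome. They were taken from 15986 genes in the files because they lie near one another and differ between genotypes. Since they were chosen by their counts in knockout against wild-type libraries, their values in that comparison are given here as a description, with no test. All 8 passed the filter on low counts and are among the 10802 genes tested. Mature neutrophils from bone marrow, selected for Ly6G, were compared in 4 groups of 3 libraries: Rab27a knockout (Rab27aKO) cells with CpG-B, knockout cells left unstimulated, wild-type cells with CpG-B and wild-type cells left unstimulated. CpG-B is a synthetic oligodeoxynucleotide that activates Toll-like receptor 9, and was given at 5 µM for 6 h at 37 °C. Both genotypes carry the strain label C57BL/6. Unstimulated cells are described both as vehicle-treated and as untreated. No source used here gives the Rab27a allele, the sex, age or number of animals, or any pooling. The libraries of a group are numbered 1, 2 and 3 in the labels, with nothing more on their origin, so any p-value reflects only how these libraries vary, perhaps for technical reasons.

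The 8 genes do unlike jobs. Vps11 and Trappc4 encode subunits of complexes that tether vesicles to their target membranes, Hyou1 encodes a chaperone of the endoplasmic reticulum, and Bcl9l encodes a coactivator that binds beta-catenin in the nucleus. Cd3d encodes the delta chain of CD3, the signalling module of the T cell receptor, and belongs to T cells rather than to granulocytes. Mpzl2, Mpzl3 and Jaml encode single-pass membrane proteins with immunoglobulin-like domains. JAML is the member best known in neutrophils, where it binds the adhesion receptor CXADR on epithelial cells during transmigration.

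The promoter windows that the data bear on most are those of Cd3d, which differs most between genotypes, of Cd3g, its neighbour that starts close by in the opposite direction, and of Jaml, which has the highest mean TPM of the 8 over all 12 libraries. Windows were found for 2 of the 8 genes and are RefSeq sequences on GRCm38.p6, an earlier build than the one used for the libraries (GRCm39), running 250 bases before to 50 bases after the start. Capitals mark matches on either strand to the ETS core of the PU.1 type (GAGGAA), the RUNX core (TGTGGT), the CCAAT box (letters as named), the TATA box (TATAAA) or the GC box (GGGCGG).
Cd3d, chr9:44981536-44981835, plus strand: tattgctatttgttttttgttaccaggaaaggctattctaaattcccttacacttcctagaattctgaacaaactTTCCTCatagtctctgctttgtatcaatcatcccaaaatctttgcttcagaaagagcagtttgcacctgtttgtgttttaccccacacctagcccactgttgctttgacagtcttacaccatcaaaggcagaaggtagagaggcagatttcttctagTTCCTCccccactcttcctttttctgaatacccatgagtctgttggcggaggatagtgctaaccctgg
Cd3g, chr9:44980382-44980681, minus strand: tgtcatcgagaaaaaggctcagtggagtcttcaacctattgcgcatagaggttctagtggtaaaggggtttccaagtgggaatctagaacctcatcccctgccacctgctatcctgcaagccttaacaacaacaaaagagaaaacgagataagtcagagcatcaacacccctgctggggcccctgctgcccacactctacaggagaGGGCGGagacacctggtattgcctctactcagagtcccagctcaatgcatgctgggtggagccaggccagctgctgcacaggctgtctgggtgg
Jaml, chr9:45078933-45079232, plus strand: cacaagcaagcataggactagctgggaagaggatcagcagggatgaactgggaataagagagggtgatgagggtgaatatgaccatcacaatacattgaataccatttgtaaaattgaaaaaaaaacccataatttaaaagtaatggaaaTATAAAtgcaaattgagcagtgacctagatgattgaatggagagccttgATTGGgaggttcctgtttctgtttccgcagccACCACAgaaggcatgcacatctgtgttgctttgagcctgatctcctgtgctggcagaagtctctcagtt
The Cd3d window holds the ETS core on the other strand at 175 and 18 bases before the start, and 28.3% of the 32851 windows in the same table hold that motif. The Cd3g window holds a single GC box, found in 35.7% of windows. The Jaml window holds a TATA box, a CCAAT box and a RUNX core, which occur in 13.6%, 37.4% and 16.8% of windows. No match overlapped another, and Cd3d and Jaml, both higher in the knockout, shared none of the motifs searched.

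Depth ran from 10928813 to 15513279 estimated counts per library. Levels are given in CPM, counts scaled to library size by TMM, unless TPM is named. Rab27a was lower in the knockout, at 94.9 to 129 CPM in knockout libraries and 207 to 335 CPM in wild-type libraries. Neutrophil markers summed to 53500 to 90700 CPM in knockout and 73900 to 86300 CPM in wild-type libraries, and none of the 12 was called between genotypes in either treatment. The 7 monocyte and macrophage markers summed to 517 to 550 CPM in unstimulated knockout and 687 to 697 CPM in unstimulated wild-type libraries, and to 1220 to 1650 CPM in knockout and 1170 to 1190 CPM in wild-type libraries with CpG, with no overlap in either treatment. One of them, Csf1r, was higher in the knockout with CpG (log2 0.63, edgeR adjusted p = 0.00986), at 693 to 945 against 530 to 582 CPM. It did not pass unstimulated (log2 -0.22, edgeR adjusted p = 0.422). Another, Ly6c2, ran from 283 to 362 CPM in unstimulated knockout and 432 to 456 CPM in unstimulated wild-type libraries. With CpG its ranges overlapped (323 to 534 against 459 to 495 CPM). Together they make up most of the sums. Of all genes tested, 13% were lower unstimulated and 10.3% higher with CpG without overlap. Erythroid markers ran from 332 to 4730 CPM over the knockout libraries and 2950 to 3890 CPM over the wild-type libraries, and B cell markers from 6.61 to 104 CPM over the knockout libraries and 27.0 to 43.1 CPM over the wild-type libraries. The part of any of these cells in the results was not tested. The erythroid and B cell sums were lowest in the knockout libraries numbered 1 and highest in those numbered 3, in both treatments. Leaving out both knockout libraries of any 1 number kept the direction of the genotype difference of all 8 genes in both treatments. Within each treatment the libraries of the 8 did not overlap between genotypes, so this could hardly have come out otherwise. Nothing about these cells is read from it. In such bulk libraries fewer cells of a type and less RNA per cell cannot be told apart.

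Compared in the deposited TPM, a unit that corrects for transcript length, the order of the 8 genes differed between genotypes. In knockout libraries Jaml had a median of 198 TPM and Cd3d 171 TPM, followed by Mpzl3 at 36.1, Trappc4 at 26.2, Vps11 at 25.9, Hyou1 at 19.5, Bcl9l at 5.00 and Mpzl2 at 2.58 TPM (6 libraries). In wild-type libraries Hyou1 came first at 124 TPM, followed by Jaml at 95.3, Vps11 at 43.0, Trappc4 at 41.3, Mpzl3 at 13.8, Cd3d at 5.34, Bcl9l at 2.04 and Mpzl2 at 0.73 TPM (6 libraries). By median, Cd3d held the second place in the knockout and the sixth in the wild type, and Hyou1 the sixth in the knockout and the first in the wild type. Among neighbours in the knockout order, the library ranges of Jaml (138 to 259 TPM) and Cd3d (99.2 to 195 TPM) overlapped. So did each neighbouring pair from Mpzl3 (26.8 to 46.6 TPM) through Trappc4 (25.1 to 29.1 TPM) and Vps11 (18.9 to 28.6 TPM) to Hyou1 (12.1 to 22.1 TPM), and Bcl9l (3.41 to 7.17 TPM) with Mpzl2 (1.36 to 6.26 TPM). The knockout order was separated only between Cd3d and Mpzl3 and between Hyou1 and Bcl9l. In the wild type the ranges of Hyou1 (74.0 to 151 TPM) and Jaml (56.6 to 152 TPM) overlapped, as did those of Vps11 (34.2 to 46.2 TPM) and Trappc4 (32.6 to 42.8 TPM), and those of Mpzl3 (9.65 to 17.9 TPM) and Cd3d (3.49 to 8.62 TPM) did not overlap.

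**Figure D1:**
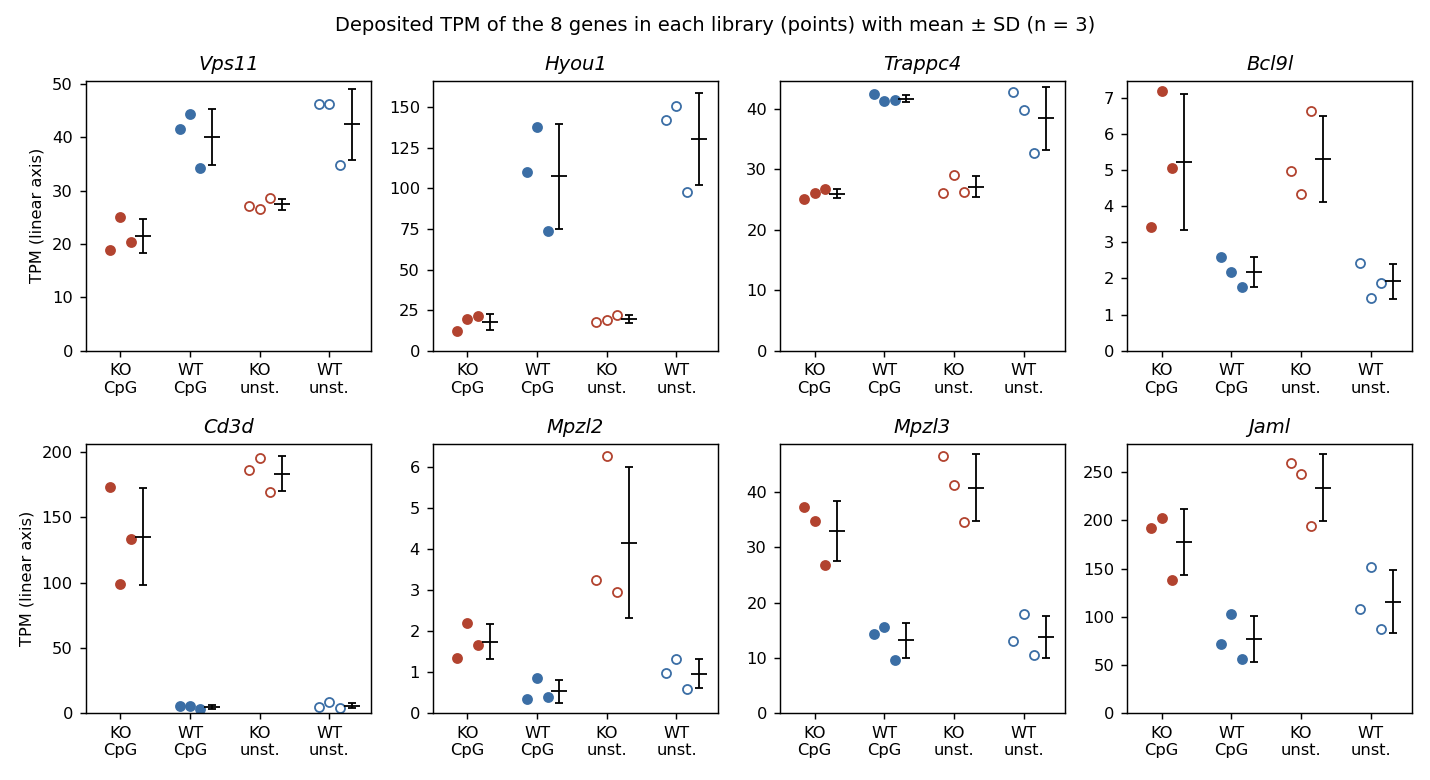
Deposited TPM (linear vertical axis from 0) of each gene in every library, by group, with knockout (KO) in red, wild type (WT) in blue, filled points with CpG and open points unstimulated; black bars are mean ± SD of 3 libraries. Vps11, Hyou1 and Trappc4 lie lower in the knockout, Bcl9l, Cd3d, Mpzl2 and Mpzl3 higher with no overlap, and Jaml higher with a small overlap between unstimulated wild type (up to 152 TPM) and knockout with CpG (from 138 TPM).

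The 3 genes at one end of the run were lower in the knockout and the 5 towards the other end were higher. All 8 are among the genes called by edgeR at an adjusted p of 0.05 in both treatments, which their choice had fixed and which is no test of them; 4.75% of all genes tested were called unstimulated, 3.92% with CpG and 2.71% in both. Of the 8 genes, 5 were higher, against 2.11% of all genes unstimulated and 1.7% with CpG, and 3 were lower, against 2.64% and 2.21%. Within each treatment no knockout library overlapped a wild-type library for any of the 8, where 12% of all genes tested were higher and 13% lower in this way unstimulated, and 10.3% higher and 10% lower with CpG. In CPM, 7 of the 8 had no overlap between the 6 knockout and the 6 wild-type libraries, 4 of them higher and 3 lower, where 2.32% of all genes tested were higher and 3.36% lower in this way. The median log2 fold change of the 8 was 1.15 in unstimulated cells and 1.25 with CpG, against -0.01 and -0.001 over all genes. Nothing is read from these shares, since the rule used the same contrast.

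Among the tethering genes, Vps11 encodes a core subunit of HOPS and CORVET, the complexes that hold late and early endosomes together before fusion. It had 64.6, 64.9 and 62.9 CPM in unstimulated knockout libraries, against 116, 113 and 92.3 CPM in unstimulated wild-type libraries. The levels with CpG were 51.9, 64.0 and 48.4 CPM in the knockout, against 102, 108 and 92.5 CPM in the wild type. Every knockout library was below every wild-type library, and the fitted gap was 1.67-fold unstimulated (log2 -0.74, SE 0.12) and 1.84-fold with CpG (log2 -0.88, SE 0.12). Trappc4, a core subunit of the TRAPP complexes that act at the Golgi, had 16.6, 19.7 and 16 CPM in unstimulated knockout libraries, against 29.7, 26.9 and 23.2 CPM in unstimulated wild-type libraries. With CpG its levels were 19.2, 16.9 and 17.7 CPM in the knockout, against 28.6, 27.7 and 30.8 CPM in the wild type. Again no knockout library reached the wild-type range, and the difference was the smallest of the 8 (log2 -0.61, SE 0.13 unstimulated; log2 -0.70, SE 0.13 with CpG). Trappc4 overlaps the ribosomal protein gene Rps25 on the opposite strand in GENCODE. Whole genes were compared and not exons, and no source used here says whether counting used strand. Whether reads of the pair are shared was not tested.

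None of 13 further HOPS, CORVET and associated genes was called between genotypes in either treatment (median log2 -0.04 unstimulated and -0.18 with CpG), and none of the 13 tested of 14 further TRAPP genes was called (median 0.06 and -0.01). Trappc10, the most abundant TRAPP gene listed, had a log2 difference of 0.06 (SE 0.09) unstimulated and 0.04 (SE 0.09) with CpG. The most abundant gene of the first list, Rab7, the GTPase of late endosomes, had a log2 difference of 0.36 (SE 0.13; edgeR adjusted p = 0.154) in unstimulated cells and 0.21 (SE 0.13; adjusted p = 0.43) with CpG.

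Hyou1 encodes a large Hsp70-family chaperone of the endoplasmic reticulum that helps the chaperone BiP release its substrates. It had 53.9, 60.4 and 62.5 CPM in unstimulated knockout libraries, against 458, 478 and 336 CPM in unstimulated wild-type libraries. Levels with CpG were 43.0, 65.9 and 65.0 CPM in the knockout, against 348, 432 and 258 CPM in the wild type. The highest knockout library thus lay far under the lowest wild-type library, and the gap came to 7.19-fold unstimulated (log2 -2.85, SE 0.21) and 5.97-fold with CpG (log2 -2.58, SE 0.21). The files divide Hyou1 among 5 transcripts, and each had a lower median in knockout than in wild-type libraries, from 5.75 against 56.7 TPM for the curated transcript to 0.40 against 5.05 TPM for the least abundant. The curated transcript held 23.5% to 72.7% of the gene's TPM in knockout libraries and 40.7% to 56.9% in wild-type libraries, a split that rests on how RSEM shares reads among near-identical transcripts.

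Among 23 other chaperone and unfolded protein response genes of the endoplasmic reticulum, 1 fell and none rose in unstimulated knockout cells, and none was called with CpG (median log2 -0.10 in both). The one that fell was the disulfide isomerase gene Pdia6 (log2 -0.74, SE 0.17; edgeR adjusted p = 0.0204). Hspa5, which encodes BiP and is the most abundant of the list, had a log2 difference of -0.18 (SE 0.14; edgeR adjusted p = 0.597) unstimulated and -0.13 (SE 0.14; adjusted p = 0.688) with CpG. These sizes stand beside -2.85 and -2.58 for Hyou1.

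Bcl9l, which links beta-catenin to the Pygo proteins, lies next along the run and was higher in the knockout. It had 21.3, 20.0 and 27.5 CPM in unstimulated knockout libraries, against 10.8, 6.61 and 9.22 CPM in unstimulated wild-type libraries. Given CpG, cells had 17.3, 35.3 and 21.8 CPM in the knockout, against 12.3, 9.56 and 9.07 CPM in the wild type. No library overlapped between genotypes, and the second knockout library with CpG stood highest. The gap came to 2.59-fold unstimulated (log2 1.37, SE 0.26) and 2.41-fold with CpG (log2 1.27, SE 0.26). Bcl9l overlaps the chemokine receptor gene Cxcr5 on the opposite strand in GENCODE, and Cxcr5 ran from 0.283 to 6.65 CPM in knockout and 0.881 to 3.68 CPM in wild-type libraries. Of 15 other genes of the beta-catenin complex 12 were tested, and none was called between genotypes (median log2 0.10 unstimulated and 0.16 with CpG). Tle3, a Groucho-type corepressor gene and the most abundant listed, had a log2 difference of 0.08 (SE 0.15) unstimulated and 0.19 (SE 0.15) with CpG. The paralogue Bcl9 had a log2 difference of 0.09 (SE 0.18) unstimulated and 0.46 (SE 0.17) with CpG.

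Cd3d had the widest genotype difference of the run. It had 144, 153 and 119 CPM in unstimulated knockout libraries, against 4.01, 6.53 and 3.21 CPM in unstimulated wild-type libraries. In cells with CpG there were 151, 75.7 and 99.1 CPM in the knockout, against 4.65, 4.05 and 3.11 CPM in the wild type. The lowest knockout library was many times above the highest wild-type library, and the gap came to 30-fold unstimulated (log2 4.91, SE 0.30) and 27.3-fold with CpG (log2 4.77, SE 0.30). In counts, knockout libraries held 1107 to 1745 and wild-type libraries 36 to 89. Its curated transcript carried 88.4% to 96.6% of the gene's TPM in knockout libraries and 62.1% to 100% in the wild type, where few reads divide the transcripts.

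The other chains of CD3 were near the limit of detection in both genotypes. Cd3g, which encodes the gamma chain and starts beside Cd3d, summed to 58 counts over the 6 knockout libraries and 8 counts over the 6 wild-type libraries, at 0.547 to 1.23 CPM in the knockout and 0 to 0.346 CPM in the wild type. No knockout library overlapped a wild-type library, but Cd3g was too low to be tested. Per length, its median was 1.17 TPM in knockout and 0.13 TPM in wild-type libraries, against 171 and 5.34 TPM for Cd3d. Cd3e, the epsilon chain gene on the far side of Cd3d, summed to 10 counts in knockout and 9 counts in wild-type libraries.

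T cell markers were low in both genotypes. The 15 found in the files, which include Cd3g and Cd3e but not Cd3d, summed to 11.3 to 23.3 CPM in knockout libraries and 15.3 to 21.3 CPM in wild-type libraries, each was above 0 in some library of every group, and none of the 10 tested was called between genotypes. Of 19 genes of the T cell receptor complex and its signalling 12 were tested, and none was called in unstimulated cells (median log2 -0.19) or with CpG (median 0.10). Ptprc, which encodes the pan-leukocyte phosphatase CD45 and is the most abundant listed, had a log2 difference of 0.06 (SE 0.15) unstimulated and 0.22 (SE 0.15) with CpG. Lck, which encodes the kinase that phosphorylates the CD3 chains, had a log2 difference of 0.36 (SE 0.74; edgeR adjusted p = 0.866) unstimulated and 0.50 (SE 0.70; adjusted p = 0.769) with CpG. Lck averaged 0.752 CPM over the 12 libraries.

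**Figure D2:**
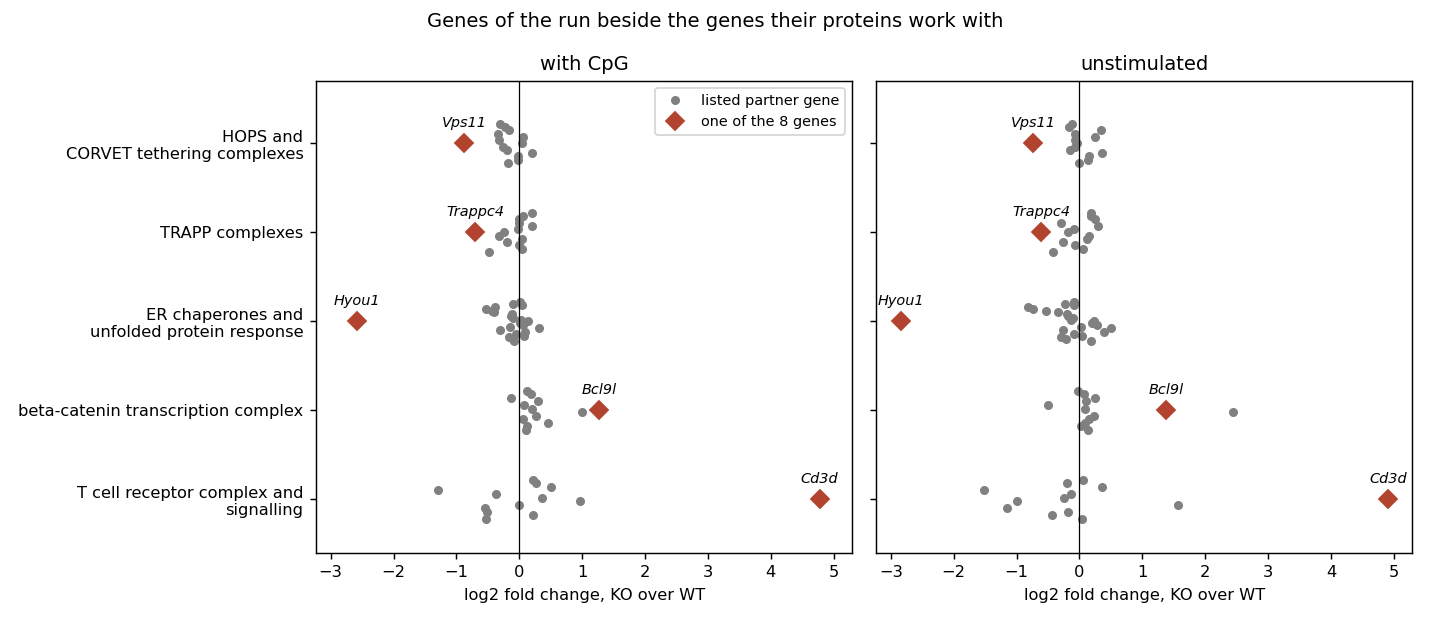
Log2 fold change of knockout over wild type (horizontal axis) with CpG (left) and unstimulated (right) for each tested gene of 5 functional lists (grey points, spread vertically for visibility) and for Vps11, Hyou1, Trappc4, Bcl9l and Cd3d placed beside them (red diamonds). Hyou1 at -2.58 and -2.85 and Cd3d at 4.77 and 4.91 stand furthest outside the points of their own lists. Vps11 and Trappc4 also stand outside in both treatments, and Bcl9l only with CpG. The genes shown as diamonds were picked for differing between genotypes, so their place outside is no test.

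The 3 adhesion-type genes that close the run were all higher in the knockout. Mpzl2, an adhesion molecule of epithelia and thymus, was the least abundant, with 6.71, 13.5 and 5.70 CPM in unstimulated knockout libraries, against 2.22, 2.86 and 1.44 CPM in unstimulated wild-type libraries. With CpG it had 3.32, 4.99 and 3.6 CPM in the knockout, against 0.751, 1.84 and 0.950 CPM in the wild type. Within each treatment and over both, knockout libraries were all above wild-type libraries, and the fitted gap was 3.95-fold unstimulated (log2 1.98, SE 0.39) and 3.35-fold with CpG (log2 1.74, SE 0.42). These rest on 38 to 154 counts in knockout and 10 to 39 counts in wild-type libraries. The 4 epithelial markers in the files summed to 0.283 to 3.52 CPM in knockout and 1.02 to 2.57 CPM in wild-type libraries.

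Mpzl3, a related gene whose loss causes hair and skin defects in mice, had 108, 98.0 and 74.0 CPM in unstimulated knockout libraries, against 32, 42.6 and 27.1 CPM in unstimulated wild-type libraries. With CpG it had 99.7, 86.3 and 61.8 CPM in the knockout, against 34.5, 36.7 and 25.4 CPM in the wild type. The groups did not overlap, and the difference was 2.75-fold unstimulated (log2 1.46, SE 0.22) and 2.56-fold with CpG (log2 1.36, SE 0.22). Jaml had 419, 410 and 289 CPM in unstimulated knockout libraries, against 183, 252 and 156 CPM in unstimulated wild-type libraries. With CpG it had 359, 341 and 221 CPM in the knockout, against 120, 169 and 103 CPM in the wild type. Within each treatment the groups did not overlap, while the lowest knockout library with CpG fell below the highest unstimulated wild-type library. The difference was 1.89-fold unstimulated (log2 0.92, SE 0.24) and 2.34-fold with CpG (log2 1.23, SE 0.24).

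In GENCODE an unnamed transcript on the opposite strand (Gm48840) overlaps both Mpzl2 and Mpzl3, and a long non-coding RNA gene (Gm10684) overlaps Jaml. Here too whole genes were compared and not exons, so whether any reads are shared was not tested.

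Not all tested genes of the run were called between genotypes. RefSeq lists 42 genes from Vps11 to Jaml, of which 25 are in the files and 19 were tested. Besides the 8, the 11 other tested genes included 1 call in unstimulated cells and 1 with CpG, and none in both. Each call is 9.09% of the 11, against 4.75% of all genes tested unstimulated and 3.92% with CpG. The 8 were picked for differing between genotypes, so the lack of a call in both among the others is no result about the run. Slc37a4, the glucose-6-phosphate transporter gene between Hyou1 and Trappc4, fell in unstimulated knockout cells (log2 -0.79, SE 0.18; edgeR adjusted p = 0.0188) and did not pass with CpG (log2 -0.46, SE 0.17; adjusted p = 0.182). Rps25, which overlaps Trappc4, fell with CpG (log2 -0.84, SE 0.21; edgeR adjusted p = 0.0395) and did not pass unstimulated (log2 -0.76, SE 0.21; adjusted p = 0.0558). Vps11, Hyou1, Slc37a4, Trappc4 and Rps25 are neighbours among the tested genes, and all had negative log2 fold changes in both treatments. Of the 11 others, Slc37a4 had all knockout libraries (8.68 to 12.8 CPM) below all wild-type libraries (14 to 20.6 CPM). Arcn1 and Ube4a had all knockout libraries above. Of all genes tested, 3.36% were lower and 2.32% higher in this way. Between Bcl9l and Cd3d 8 tested genes in a row were called in neither treatment, and neither were the 5 tested genes on each side of the run. The run is bounded by the outermost of the 8, so the uncalled genes on each side may follow from that choice. Cd3d, Mpzl2, Mpzl3 and Jaml are neighbours among the tested genes. By the same calls, chromosome 9 as a whole gave 10.4% unstimulated and 8.22% with CpG, with the 8 picked genes and Rab27a included. Between Jaml and Rab27a lie 173 tested genes, of which 7.51% and 4.62% were called.

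**Figure D3:**
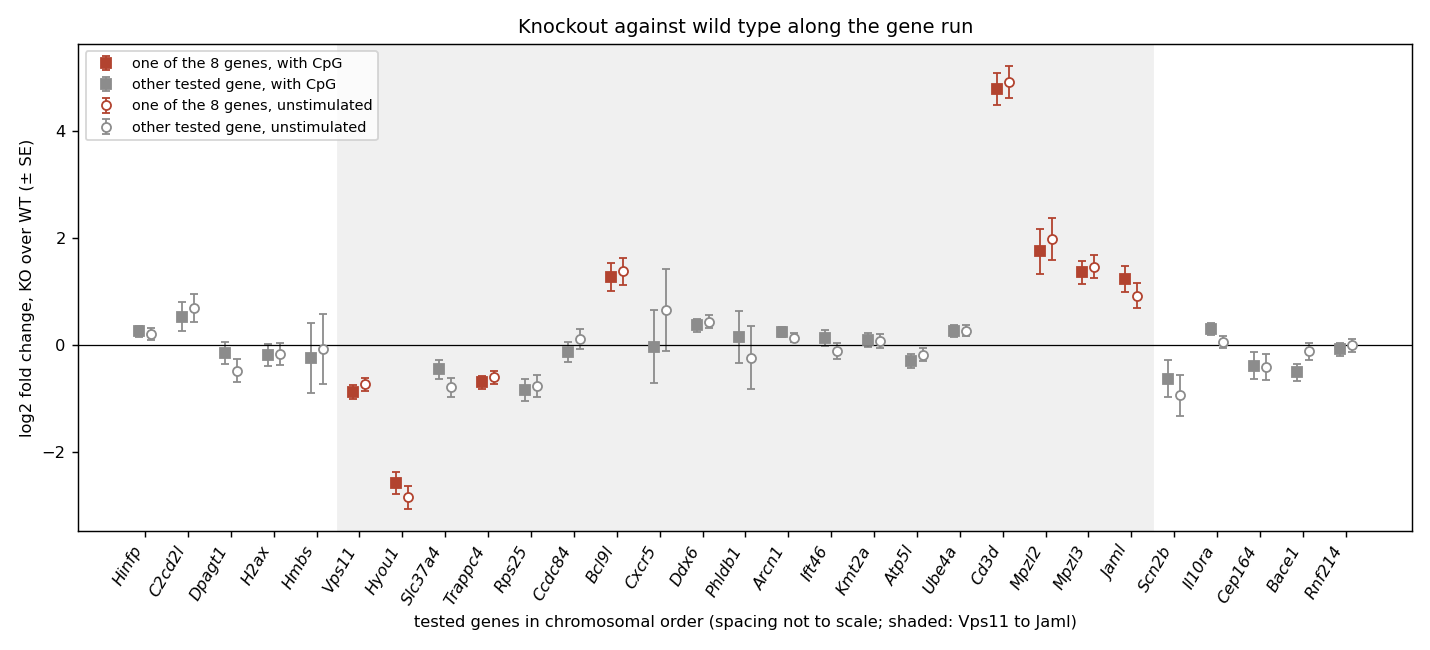
Log2 fold change of knockout over wild type (vertical axis, bars are SE) for every tested gene from 5 genes before Vps11 to 5 after Jaml, in chromosomal order without distances; squares are with CpG, open circles unstimulated, red the 8 genes and grey the others. Lower values (Vps11, Hyou1, Trappc4) lie at the left of the shaded run and higher ones (Bcl9l, Cd3d, Mpzl2, Mpzl3, Jaml) further right, with 8 uncalled genes between Bcl9l and Cd3d.

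Whether CpG changed these genes is a question that the choice of members did not use. The CpG effect averaged over both genotypes was tested. In this balanced design it is uncorrelated with the genotype difference in either treatment if all groups vary equally. That holds only roughly here: for Mpzl2 the SE of the CpG effect was 0.37 in the knockout and 0.44 in the wild type. Of the 8 genes 1 fell and none rose, where 17.3% of all genes tested were called (10.2% higher and 7.08% lower), so the share among the 8 is near the background. Mpzl2 fell by 1 log2 unit with CpG (SE 0.29; edgeR adjusted p = 0.0278). Its libraries with CpG lay below the unstimulated ones without overlap in the knockout (3.32 to 4.99 against 5.70 to 13.5 CPM) and overlapped them in the wild type (0.751 to 1.84 against 1.44 to 2.86 CPM). The call ended without any one of 6 libraries (unstimulated wild type 1 or 2, wild type with CpG 1 or 3, unstimulated knockout 2, knockout with CpG 3), with edgeR adjusted p of 0.0522 to 0.0825, and with curated transcripts alone (adjusted p = 0.397).

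The other 7 genes did not pass in the edgeR fit without a block. Jaml came nearest, with a log2 change of -0.44 (95% interval -0.82 to -0.05; edgeR adjusted p = 0.0978), and passed in 6 of 23 alternative settings. These include a block by replicate number (edgeR adjusted p = 0.00463) and by number within genotype (edgeR adjusted p = 1.88e-05). Jaml also passed with library size alone (edgeR adjusted p = 0.0463), with DESeq2 (adjusted p = 0.0437) and with some single libraries left out. Its call thus depends on scaling, test and the libraries kept as well as on pairing. The labels do not say whether same-numbered libraries are pairs. Cd3d had a log2 change of -0.29 (95% interval -0.75 to 0.17; edgeR adjusted p = 0.41) and Bcl9l one of 0.17 (-0.25 to 0.59; adjusted p = 0.634). Intervals were narrower for Vps11 (-0.36 to 0.04), Hyou1 (-0.49 to 0.17), Trappc4 (-0.12 to 0.29) and Mpzl3 (-0.47 to 0.22). All 8 had a difference between the CpG effects of knockout and wild-type cells that was smaller than its own SE, from -0.24 (SE 0.59) for Mpzl2 to 0.31 (SE 0.33) for Jaml on the log2 scale, which is given without a test.

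**Figure D4:**
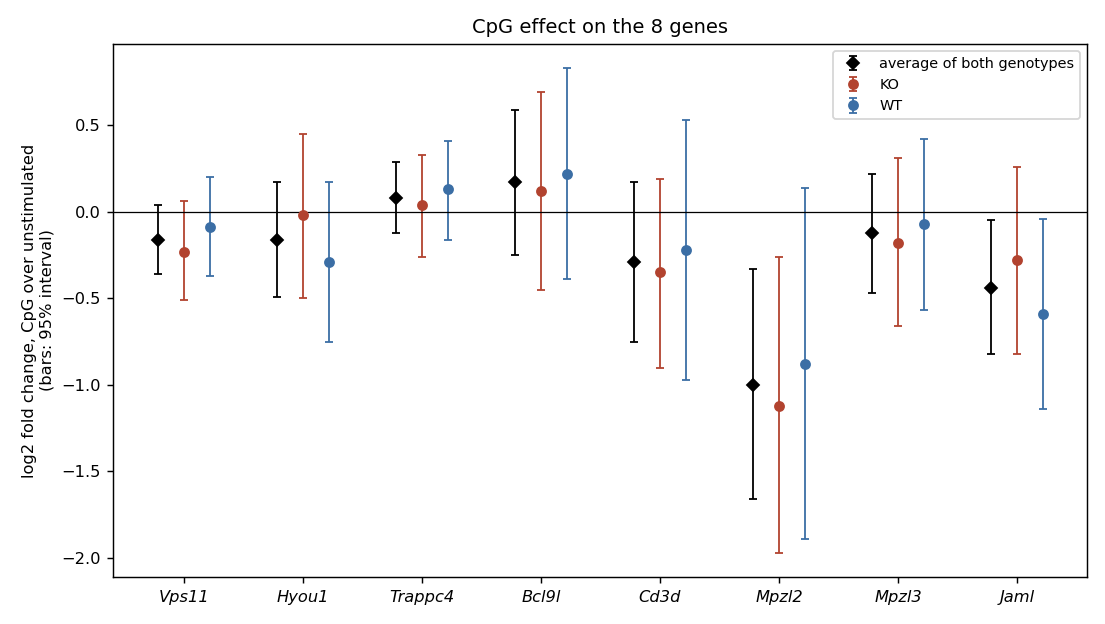
Log2 fold change of CpG over unstimulated (vertical axis) for each gene as the average of both genotypes (black diamonds), in knockout (red) and in wild-type cells (blue), with 95% intervals. Mpzl2 at -1 lies furthest from 0, and the knockout and wild-type intervals of every gene overlap.

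CpG changed a few of the listed partner genes on average over both genotypes, to be read against the 17.3% of all genes called (10.2% higher and 7.08% lower). Vps39 of HOPS (log2 -0.47, SE 0.10; edgeR adjusted p = 0.00342) and Trappc5 of TRAPP (log2 -0.29, SE 0.07; adjusted p = 0.00983) each fell as the single call among the 13 tested genes of their lists. Of the 23 endoplasmic reticulum genes 2 rose and 1 fell, led by the stress kinase gene Eif2ak3, which fell (log2 -0.95, SE 0.10; edgeR adjusted p = 1.8e-05), and Herpud1, which rose (log2 0.66, SE 0.09; edgeR adjusted p = 8.09e-05). Of the 12 tested beta-catenin genes 2 rose, Bcl9 (log2 0.85, SE 0.12; edgeR adjusted p = 0.000232) and Ctnnb1, which encodes beta-catenin (log2 0.30, SE 0.07; adjusted p = 0.00554). Of the 12 tested T cell receptor genes 3 rose and 1 fell, and the lowest adjusted p was that of the adaptor gene Lcp2, also active in neutrophils (log2 1.06, SE 0.08; edgeR adjusted p = 3.86e-07). The list medians lay between -0.11 and 0.24, against -0.008 over all genes tested.

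Genes on other chromosomes followed the 8 closely over the 12 libraries, measured by Pearson's r of log2 CPM and given as a description. These libraries fall into 2 genotypes, and every gene that differs between them in the same direction shares that pattern. The closest to Cd3d were Zfp692 (r = 0.991) on chromosome 11 and the pseudogene Tma7-ps (r = 0.988) on chromosome 1. The closest to Hyou1 were Man2a2 (r = 0.989) and Mogat2 (r = 0.985), both on chromosome 7, and the closest to Vps11 was Haus8 (r = 0.991) on chromosome 8. For Trappc4 the closest were Use1 (r = 0.969) and Smim7 (r = 0.964), both on chromosome 8, and for Jaml they were Lyve1 (r = 0.968) on chromosome 7 and Ttf2 (r = 0.960) on chromosome 3. Of the 16 genes picked in this way, 2 for each of the 8, none lies on chromosome 9. That chromosome holds 596 of the 10802 genes tested, so few of 16 would fall there in any case, and nothing is read from this. The 8 themselves could not be picked. Between them r ran from -0.97 (Hyou1 with Cd3d) to 0.96 (Vps11 with Hyou1, and Cd3d with Mpzl3).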

How the data were processed

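The authors deposited, for each RefSeq transcript, an estimated count (RSEM's expected count, not normalized) and a TPM value, per the file headers. Deposited TPM values, scaled by length and library total, served only to compare levels between genes. RSEM 1.2.28, Bowtie2 and build GRCm39 are named in the submitters' processing notes, without roles; no source used here gives strandedness. Counts of 54716 transcripts (80.4% of the non-zero estimates not whole, to within 0.001) were summed per NCBI gene and rounded; 15883 of 15986 genes matched a symbol, and gene order came from RefSeq on GRCm38.p6. After filterByExpr (smallest count 10, smallest total 15), 10802 genes were fitted with TMM scaling (factors 0.900 to 1.09) and edgeR 4.0.16 quasi-likelihood tests (R 4.3.3), 1 mean per group over 12 libraries, with Benjamini-Hochberg adjustment over all genes and calls at 0.05. Intervals are 95%, from the SE and 8 residual degrees of freedom. The script was tested on simulated data.

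The members and the 5 lists of partner genes were chosen with earlier results of these data known. Named genes were the 8, called genes within the run, and at most 3 called genes of each list or, with none called, the most abundant one. For each of the 8, the 2 closest genes outside the 8 by Pearson's r (log2 CPM, prior count 1) were also named. Bcl9, Lck, Csf1r, Ly6c2, Cd3g, Cd3e, Cxcr5, Arcn1 and Ube4a were named after their values were seen. Alternatives were other scalings, DESeq2 1.42.0, other filters (none, or 1 CPM in 3 libraries), curated transcripts, replicate number or animal as a block, only the groups compared and each library left out; leaving out both knockout libraries of 1 number was added after the data were seen. A list of relatives of the adhesion genes is not reported here. No 2 libraries of a group agreed within sampling noise.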

Additional observations from a re-analysis of the deposited data

How the results depend on the processing

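The genotype differences of all 8 genes kept their direction under all 23 alternatives in both treatments. This is no test of the 8, which were picked for that difference. Within each treatment their libraries did not overlap between genotypes, so leaving libraries out could hardly turn a direction. The value of Hyou1 with CpG moved most, to -3.39 (log2) with curated transcripts alone, where fewer transcripts are counted. Cd3d ranged from 4.72 to 5.29 unstimulated and from 4.46 to 5.00 with CpG. For CpG, Mpzl2 ran from -1.25 to -0.76 (edgeR or DESeq2 adjusted p 0.00131 to 0.397) and lost its call in 8 of 23 alternatives, 7 of which leave out libraries (adjusted p = 0.0742 without both knockout libraries numbered 2). Jaml gained one in 6 (range 1.88e-05 to 0.215): library size alone (0.0463), DESeq2 (0.0437), either block, and without wild type with CpG 2 (0.0342) or unstimulated knockout 3 (0.0440). Bcl9l ran from -0.02 to 0.27 with each library left out, turning to -0.02 without knockout with CpG 2 and to -0.05 without both knockout libraries numbered 2, over a range of adjusted p of 0.329 to 0.974; the cause was not tested. Its widest move was to 1.46 (SE 1.02) with curated transcripts alone, which hold a median of 14.9% of its TPM in knockout and 12.1% in wild-type libraries; its genotype differences there have SEs of 1.5 unstimulated and 1.4 with CpG.

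Counts of genes called over the whole table moved more. Knockout against wild type unstimulated (513) gave 782 with DESeq2, 283 with curated transcripts, 341 and 300 without both knockout libraries numbered 1 or 2, and 278 to 604 with each library left out; it fell to 328, 324, 311 and 278 without unstimulated wild type 1 or 3 or unstimulated knockout 1 or 2. With CpG (423) the count was 734 with DESeq2, 227 with curated transcripts, 253 with the 2 groups alone, 250 and 824 without both knockout libraries numbered 2 or 3, and 234 to 699 with each library left out, the ends being without wild type with CpG 1 and without knockout with CpG 3. The CpG count (1867) ran from 1437 to 2040 with each library left out. With library size as the only scaling, CpG calls split into 992 higher and 1160 lower, against 1102 and 765 with TMM, and 155 higher and 314 lower for knockout against wild type with CpG, against 184 and 239.

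Same-numbered libraries of the 2 treatments correlated at 0.62, 0.09 and 0.68 in the knockout and 0.28, 0.41 and 0.44 in the wild type. Pairing was to be used only if each of these was above 0.1, so the main fit has no block. Whether the numbers pair samples is not settled by this. As a hint from the data, each of the 6 knockout and 6 wild-type libraries correlated best with its own number. The replicate number as a block gave 2021 calls for CpG, 654 unstimulated and 510 with CpG, and Jaml an adjusted p of 0.00463; animal (number within genotype) as the block gave 3254 for CpG and 1.88e-05 for Jaml. With 10 to 39 counts per wild-type library, depth limits Mpzl2 most.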
